A study of Mus musculus with 5 samples.

Results

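The comparison sets 1 array against 2, all from A/J mice whose tracheas had received IL-13. This cytokine of T helper 2 cells drives mucus production in asthma models. The series holds 5 Affymetrix mouse expression arrays of total RNA, 3 of IL-13 and 2 of saline by the same route, and its title concerns goblet cells induced by allergen. Each array carries a number in its title, 6, 18 or 48 for IL-13 and 6 or 48 for saline, with no unit given, so arrays are called by treatment and number. IL-13 6 was set against IL-13 18 and IL-13 48, over the 12422 probe sets that are not manufacturer controls. The saline arrays entered no fit and had no part in the patterns. Their values are printed as the level of the saline control, and some subsets below were split by them. The sources used here do not give age, dose, the interval after dosing or the number of animals per array, so replicate animals cannot be counted, and differences of title number cannot be told apart from differences between single arrays. The title of IL-13 6 also ends in s3 where the other 4 end in s2, so any effect of that ending cannot be told apart from the number.

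IL-13 binds a receptor of Il4ra and Il13ra1 chains on airway epithelium, macrophages and fibroblasts and signals through the transcription factor Stat6. In mouse lung it is known to turn on mucus and secretory genes of goblet cells, chitinase-like proteins, arginase, 12/15-lipoxygenase and eotaxin chemokines. Some of these are early and short-lived transcripts, and others follow as the epithelium changes its cell types.

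All values are intensities on the scale of the deposited table, whose 2% trimmed mean lies at 800.4 or 800.5 on each array. The 3 IL-13 arrays had medians of 342, 358 and 347, and between 19.6% and 20.5% of probe sets lay below 59.2, the 20th percentile pooled over the 3 arrays, which served as the floor. Pearson correlation of log2 values over the 7457 brighter probe sets was 0.949 between IL-13 6 and 18, 0.954 between 6 and 48 and 0.959 between 18 and 48, a description across probe sets, which are not independent replicates. The source is labelled as lung. Sftpc, the surfactant protein that defines alveolar type 2 cells, read 257, 17178 and 300.5 on IL-13 6, 18 and 48, so that marker lay below the pooled median of 349 on 2 of the 3 arrays. The summed level of 28 skeletal muscle genes was 270315, 228057 and 241588, and thyroglobulin (Tg, made by the thyroid) read 25516, 18348 and 15057. Summed salivary gland genes (17 on the array) were 3939, 3669 and 3948 on the IL-13 arrays and 112887 and 4186 on saline 6 and 48. The part of tissue makeup in the differences below was not tested, and in RNA of a whole tissue fewer cells of a type and less RNA per cell cannot be told apart.

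No probe set passed the test of IL-13 6 against the later arrays. limma's moderated test on 7457 probe sets gave 0 higher and 0 lower at a Benjamini-Hochberg adjusted p of 0.05, that is 0% in each direction, with a lowest adjusted p of 0.213. At an unadjusted p under 0.05, 300 were higher and 411 lower on IL-13 6. The fit had 1 residual degree of freedom and 3.40 prior degrees of freedom, and the lone IL-13 6 array was assumed to vary like the other pair. The patterns below are therefore descriptions of 3 arrays by a fixed fold rule, with no test.

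Of the 12422 probe sets, 62 (0.499%) were early-high, meaning at least 2-fold higher on IL-13 6 than on both later arrays and above the pooled median there. Another 38 (0.306%) were late-high, with both later arrays at least 2-fold above IL-13 6 and above the median. Steady probe sets, with all 3 values above the median and within 1.5-fold of each other, numbered 4804 (38.7%). The 2 saline arrays of title numbers 6 and 48 gave larger counts between single arrays, 202 (1.63%) at least 2-fold higher on saline 6 and 201 (1.62%) at least 2-fold lower. Requiring a gap from both later arrays is a stricter rule than 1 pair: without IL-13 18 the early-high count was 131 and the late-high count 94, and without IL-13 48 they were 110 and 135. The nearest members to the threshold were Car8 at 2.001-fold inside and Med1 at 1.971-fold outside for early-high, and Crct1 at 2.014-fold inside and Taf1d at 1.989-fold outside for late-high.

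**Figure D1:**
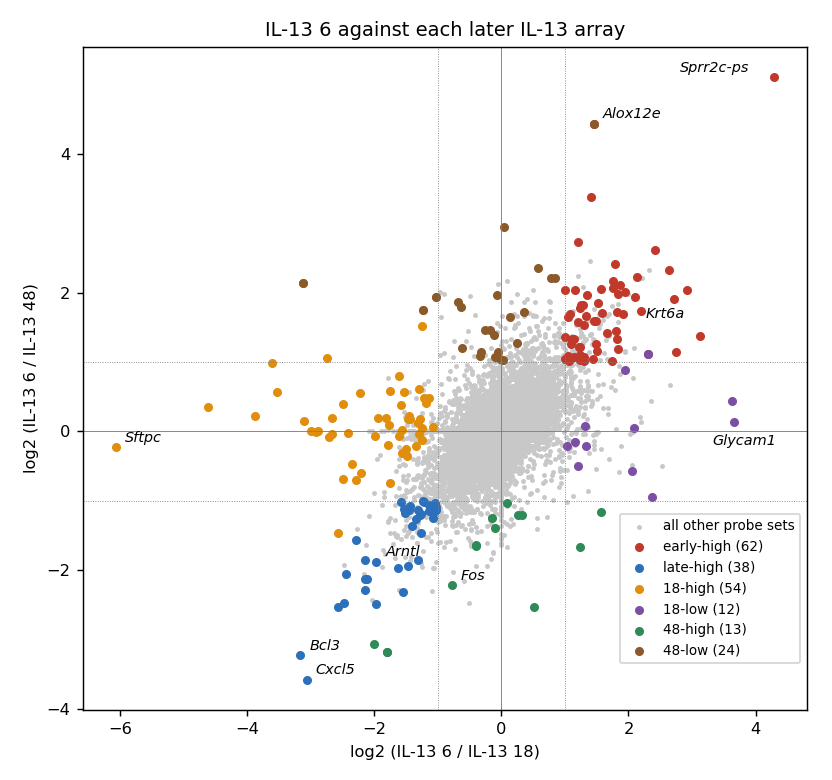
Each point is 1 of 12422 probe sets, with log2 of IL-13 6 over IL-13 18 on the horizontal axis and log2 of IL-13 6 over IL-13 48 on the vertical axis, from floored intensities; colours mark patterns, with their counts, and a probe set in 2 patterns shows the colour listed later. The 62 early-high probe sets lie beyond 1 on both axes and the 38 late-high ones below -1 on both, while the 54 probe sets high on IL-13 18 alone spread out to the left.

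The early-high transcripts formed 2 groups of equal size once the saline arrays were read beside them, a split made after the values were seen. In 22 of the 62 (35.5%), IL-13 6 was also at least 2-fold above both saline arrays. In another 22 (35.5%), saline 6 was, like IL-13 6, at least 2-fold above both later IL-13 arrays. The other 18 did neither.

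The first group held mediators known to answer IL-13. Ccl11, the eosinophil chemokine eotaxin-1, read 1399, 394 and 353 on IL-13 6, 18 and 48, and 211 and 227 on saline 6 and 48. The level on IL-13 6 was thus 3.55-fold that of the nearer later array (log2 difference from the mean of both 1.91, SE 0.20, limma adjusted p = 0.221). Arg1, the arginase of alternatively activated macrophages, read 1283, 379.7 and 286 on IL-13 6, 18 and 48, with saline at 313 and 479. By the definition of this group, IL-13 6 stands above all 4 other arrays in every member. The later IL-13 arrays of Arg1 overlapped the saline pair.

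A pair of lipoxygenases of the 12/15 family, which oxygenate arachidonic acid, behaved alike in order but not in level. Alox15 read 2530.01, 1041 and 712 on IL-13 6, 18 and 48, and 632 and 441 on saline 6 and 48. Alox12e read 1282, 466 and 24.3 at one probe set, the last below the floor, so that IL-13 6 was at least 21.7-fold above IL-13 48. At its other probe set Alox12e read 2327, 1294 and 502, where the gap between 6 and 18 stayed under the 2-fold rule. Serpinb2, the plasminogen activator inhibitor of stressed epithelium and macrophages, read 1031, 361 and 285, with saline at 172 and 335. Of 39 genes on the array from a list of IL-4 and IL-13 response, 4 were early-high (Ccl11, Arg1, Alox15 and Serpinb2), against 47 of all 8251 genes (0.57%), and 0 were late-high, against 26 (0.315%). The median log2 difference of the 39 was 0.22, against 0.00 over all genes, and it was 0.08 without IL-13 48 and 0.05 with the floor at the 40th percentile.

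Squamous and cornified-envelope genes also belonged to that group. The probe set assigned to Sprr2c-ps, a small proline-rich pseudogene, had the widest gap of all, a 19.6-fold step between 6 and 18. It read 2959, 151 and 85.5 on IL-13 6, 18 and 48 and 87.2 and 63.1 on saline. Its name ends in _f_at, which marks probes shared within a gene family, so the pseudogene cannot be told apart from its relatives. Krt6a, a keratin of stressed and regenerating epithelium, was the only gene with 2 early-high probe sets, at 5158, 1202 and 1339 and at 13137, 4167 and 4889. Its saline values were 808 and 800.1 at the first and 2284 and 3413 at the other. The limma log2 difference at the first was 2.02 (SE 0.20, adjusted p = 0.219). Anxa8 and Sprr1a, singled out after their values were seen, read 7838, 3170.1 and 2696, and 3801, 1764 and 1519.5. Of 38 genes on the array from the list of small proline-rich, keratin and cornified-envelope genes, 4 were early-high, 1 late-high and 11 steady, against 0.57%, 0.315% and 47% of all genes. The median log2 difference was 0.30 (0.42 without IL-13 18, 0.26 without IL-13 48, 0.14 with the higher floor).

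Some Sprr2 genes were lower at each step from 6 to 18 to 48. Sprr2b read 19622, 11479 and 4234 on IL-13 6, 18 and 48, with saline at 2391 and 2248. Sprr2g read 5256, 3325 and 2210.2, with saline at 1734 and 1821. Sprr2e, by contrast, read 7444 and 7699 on IL-13 6 and 18 and 3372 on IL-13 48. Probe sets of these genes also end in _f_at, so members of the family cannot be fully told apart. Krt4 and Krt13, keratins of stratified epithelium on the same list, were steady, at 20694, 17758 and 15406 and at 15554, 13779 and 17699.9.

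Among other early-high genes above both saline arrays, Aldh1a3, which makes retinoic acid, read 718, 109 and 190.4, with saline at 189.9 and 253. Dnajc11, a mitochondrial co-chaperone, read 479.9, 125 and 119, with saline at 142 and 157. Psca, a cell-surface protein of epithelial cells, read 2395, 1078 and 581, with saline at 410.3 and 522. The later IL-13 values of Dnajc11 lay below the saline pair, while those of Aldh1a3 overlapped it. Of the 57 named early-high genes, 11 had another probe set above the 40th percentile that lacked the pattern.

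**Figure D2:**
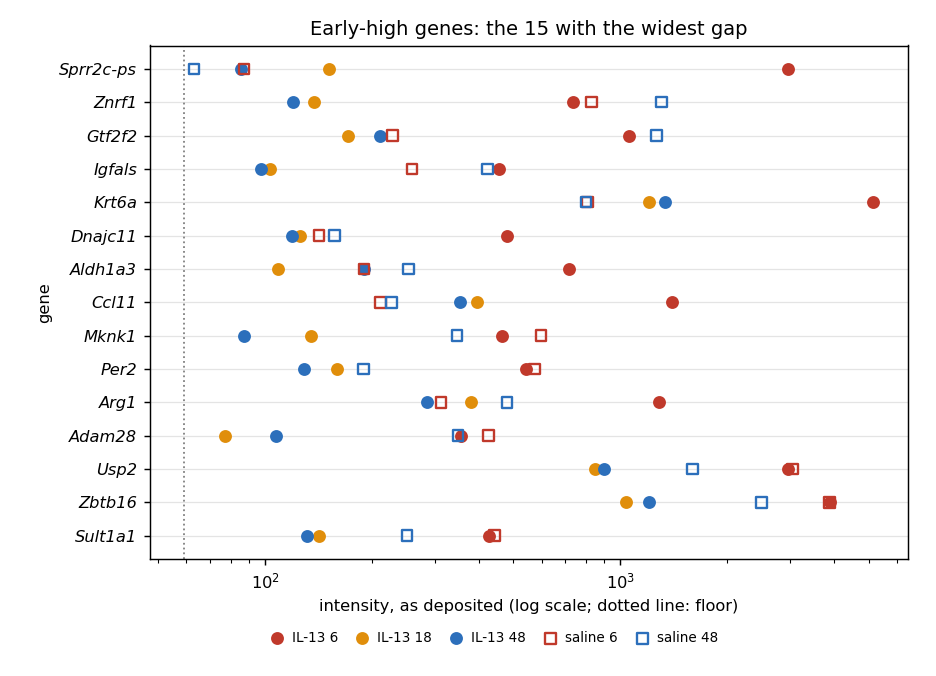
Intensity on a log scale for the 15 early-high genes with the widest gap, 1 point per array: filled circles are IL-13 6 (red), 18 (orange) and 48 (blue), open squares saline 6 (red) and 48 (blue), and the dotted line is the floor of 59.2. Ccl11, Arg1, Krt6a, Aldh1a3, Dnajc11 and Sprr2c-ps have the red circle alone on the right, whereas for Per2, Usp2, Zbtb16 and Sult1a1 the red square lies beside it.

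The second group included 3 genes of the circadian clock and its output, the feedback loop in which Arntl (BMAL1) and Clock activate Per and Cry genes that then repress them. Per2, a repressor of the loop, read 542, 159.6 and 129 on IL-13 6, 18 and 48, and 573 and 189 on saline 6 and 48. Dbp, a transcription factor driven by the loop, read 1499.9, 506 and 360.4, with saline at 1492 and 639. Tef, a factor of the same PAR bZIP family, read 3082, 1326 and 1324, with saline at 4076 and 918. By the definition of this group, both arrays numbered 6 stand above IL-13 18 and 48. Saline 48, which the definition leaves free, also read below both arrays numbered 6 for these 3 genes. The share of all probe sets with this order was not counted.

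Arntl, the activating arm, had the opposite order. It read 219, 855 and 807 on IL-13 6, 18 and 48, and 279 and 828 on saline 6 and 48 (IL-13 log2 difference -1.92, SE 0.19, limma adjusted p = 0.219). Per1 read 926, 554 and 415, with saline at 1414 and 627, and Nr1d2, a nuclear receptor of the loop, read 1659, 949.6 and 999, with saline at 1496 and 871. Both read higher on IL-13 6 than on either later array, without meeting the 2-fold rule. Nr1d1, the related receptor, was steady at 1587, 1543 and 1874, as were Clock, Cry1, Rora, Bhlhe40, Csnk1d and Csnk1e. Of 18 clock genes on the array, 3 were early-high, 1 was late-high and 7 were steady, against 0.57% early-high, 0.315% late-high and 47% steady over all genes. The list's median log2 difference was 0.24 within IL-13 and 0.23 between saline 6 and saline 48.

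**Figure D3:**
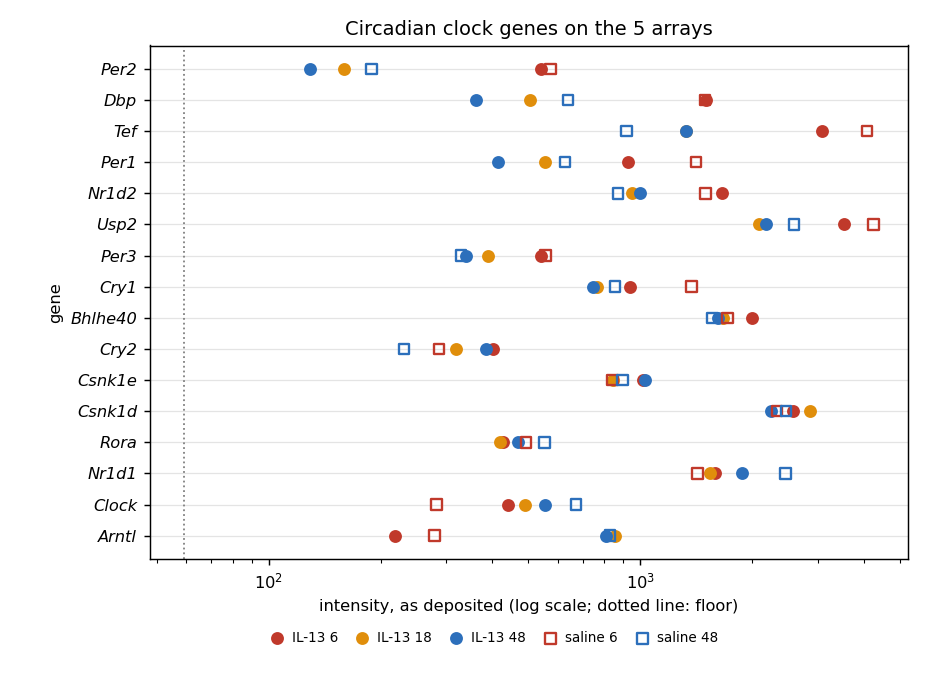
Intensity on a log scale for the 16 clock genes above the 40th percentile on any IL-13 array, ordered by the log2 difference of IL-13 6 from the later arrays, with symbols as in the plot of early-high genes. Red symbols, circle and square, lie to the right for Per2, Dbp and Tef and to the left for Arntl, and all 5 symbols lie close together for Csnk1d and Csnk1e.

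A pair of genes from the list of glucocorticoid targets and metallothioneins was likewise higher on IL-13 6 than on both later arrays. Dusp1 of that list went the other way, at 3159, 5424 and 7049.8 on IL-13 6, 18 and 48. Zbtb16, a transcription factor induced by glucocorticoids, read 3893, 1038 and 1203 on IL-13 6, 18 and 48, with saline at 3878 and 2496. Fkbp5, a co-chaperone that dampens the glucocorticoid receptor, read 2925, 1383 and 903, with saline at 3539 and 2836. For both, the saline 48 array also read higher than the later IL-13 arrays. Of 19 genes on that list 2 were early-high and 0 late-high, against 0.57% and 0.315% of all genes. The median log2 difference was 0.21 within IL-13 (0.09 without IL-13 48) and 0.31 between the saline arrays. Usp2, a ubiquitin protease, read 2971, 846 and 899, with saline at 3048 and 1598, and its other probe set read 3525, 2093 and 2174, under the 2-fold rule. At 8 of the 62 early-high probe sets (12.9%) both saline arrays were at least 2-fold above both later IL-13 arrays. Znrf1, a ubiquitin ligase, was one of them at 734, 137 and 119.7 on IL-13 6, 18 and 48, with saline at 830.2 and 1305, so the later IL-13 arrays alone were low at that probe set. Its other probe sets lacked the pattern, at 886, 892 and 740.2 and at 123, 87.1 and 134.

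Of 18 fat-cell genes on the array 2 were early-high, against 0.57% of all genes, and both were high on saline 6 too. Plin4, a lipid droplet coat protein, read 1764, 823 and 736 on IL-13 6, 18 and 48, with saline at 2186 and 1243, and Cidec, which fuses lipid droplets, read 685, 327 and 340.1, with saline at 1599 and 588. The summed level of 18 adipose genes was 90320.2, 69646 and 72234 on the IL-13 arrays and 138582 and 76688 on saline, and its part in these 2 genes was not tested. Prp2 and Wfdc12, singled out after their values were seen, read 6295 and 13757 on saline 6, far above 670.4 and 752 on IL-13 6, on the array that also held the summed salivary gland level of 112887. Another probe set of Prp2 lacked the early-high pattern, at 944, 182 and 1824 on IL-13 6, 18 and 48, with saline at 6216 and 988.

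The promoters of early-high genes could be searched where RefSeq (GRCm38.p6) gave one, for 33 of 47 early-high and 21 of 26 late-high genes, over 250 bases before to 50 after each start and on both strands. A gene counted here by its brightest probe set. CACGTG, the E-box bound by Arntl and Clock, was in 6 of 33 early-high (18.2%) and 0 of 21 late-high promoters, against 11.5% of 6572 array genes and 7.15% of all 32851 promoters. Pola2, late-high only at a probe set that is not its brightest, also holds it and is outside the 21. TGANTCA, the AP-1 motif, was in 5 of 33 (15.2%) and 0 of 21, against 7.52% of array genes and 7.81% of all. The Stat6 motif, in which 4 free bases lie between TTC and GAA, was in 3 of 33 (9.09%) and 1 of 21 (4.76%), against 6.68% and 6.95%. TATAAA was in 8 of 33 (24.2%) and 4 of 21 (19.0%), against 12.2% and 13.6%. A match is a description of letters, not a bound site. The counts are small, and genes with several starts have more windows.

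Shown are 3 early-high genes that were also high on saline 6 and hold CACGTG, and Sprr1a for its 2 AP-1 matches; capitals mark the motif, and each runs 5′ to 3′ on the gene's strand. The E-box of Tef (chr15:81802423-81802722, plus strand) starts 127 bases before that gene start, and another Tef start has one 138 bases before it. That of Gadd45g, a growth arrest gene (chr13:51846425-51846724, plus strand), starts 142 bases before, and that of Fkbp5 (chr17:28486100-28486399, minus strand) 169 bases before. In Sprr1a (chr3:92485832-92486131, minus strand) the matches start 146 and 116 bases before. The windows of Dbp, Usp2 and Arntl held no CACGTG in these letters.
Tef: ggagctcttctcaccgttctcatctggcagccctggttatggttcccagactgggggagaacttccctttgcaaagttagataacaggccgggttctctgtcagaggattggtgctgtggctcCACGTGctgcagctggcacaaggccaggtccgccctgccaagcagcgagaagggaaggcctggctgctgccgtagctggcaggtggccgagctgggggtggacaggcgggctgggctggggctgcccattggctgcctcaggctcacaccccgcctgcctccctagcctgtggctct
Gadd45g: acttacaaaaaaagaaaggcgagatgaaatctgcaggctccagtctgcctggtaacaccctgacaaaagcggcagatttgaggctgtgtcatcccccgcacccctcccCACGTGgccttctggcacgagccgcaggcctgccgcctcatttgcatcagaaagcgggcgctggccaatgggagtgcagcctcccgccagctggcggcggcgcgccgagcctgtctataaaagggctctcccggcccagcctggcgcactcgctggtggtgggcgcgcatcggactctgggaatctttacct
Fkbp5: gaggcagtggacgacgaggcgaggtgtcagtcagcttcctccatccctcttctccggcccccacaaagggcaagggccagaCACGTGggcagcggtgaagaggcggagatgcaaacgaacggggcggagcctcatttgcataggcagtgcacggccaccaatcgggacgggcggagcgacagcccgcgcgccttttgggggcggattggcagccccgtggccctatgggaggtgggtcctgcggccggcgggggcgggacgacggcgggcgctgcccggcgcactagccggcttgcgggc
Sprr1a: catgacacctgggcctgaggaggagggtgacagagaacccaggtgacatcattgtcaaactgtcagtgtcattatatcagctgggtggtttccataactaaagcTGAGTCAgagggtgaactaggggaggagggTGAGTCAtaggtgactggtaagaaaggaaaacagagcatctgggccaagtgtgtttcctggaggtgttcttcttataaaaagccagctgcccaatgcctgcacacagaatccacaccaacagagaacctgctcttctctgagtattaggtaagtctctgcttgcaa

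Late-high transcripts were fewer and mostly dim on IL-13 6. Bcl3, a co-regulator of NF-kB, read 85.0, 761 and 796 on IL-13 6, 18 and 48, an 8.96-fold gap, with saline at 572 and 699.9. IL-13 6 alone was low among the 5 arrays. Cxcl5, a neutrophil chemokine, read 62.7, 525 and 749.9, an 8.37-fold gap, with saline at 30.5 and 218. For this gene both later IL-13 arrays were above all others, and both arrays numbered 6 were lowest. The related chemokine Cxcl1 read 80.3, 229 and 281, with saline at 68.2 and 109, and lay below the brightness the rule asks for.

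Only 2 of the 38 late-high probe sets (5.26%), those of Cxcl5 and Sdf2, had both later IL-13 arrays at least 2-fold above both saline arrays. Sdf2, an endoplasmic reticulum protein, read 91.8, 405 and 403, with saline at 117 and 132. In 11 of the 38 (28.9%), IL-13 6 instead lay at least 2-fold below both saline arrays, as for Bcl3. Hoxb5, a homeobox factor of lung development, read 82.8, 359 and 360.2, with saline at 247 and 306. Wdr75, a ribosome biogenesis factor, read 90.3, 490.3 and 377, with saline at 420.2 and 493. Pfn1, an actin-binding protein, read 99.6, 441 and 359, with saline at 496 and 312. In these 3 genes the later IL-13 values were near the saline ones, and IL-13 6 is lowest by the definition of this subset.

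Other late-high genes included Tgm3, a transglutaminase of the cornified envelope, at 547, 1362 and 1976, with saline at 503 and 793. Col18a1, a basement membrane collagen, read 142, 394 and 544 at one probe set, with saline at 353 and 489, but its brightest was steady at 985, 1171 and 1389.98 and the others lacked the pattern too. Krt81, a hair keratin, read 176, 693 and 987, with saline at 1273 and 788. Of 34 named late-high genes, 9 had another probe set above the 40th percentile without the pattern and 0 had a second one with it. For Pola2, a subunit of DNA polymerase alpha, the late-high probe set read 79.2, 472 and 458 while another read 599, 519.9 and 497. The late-high count was 24 when the floor was the 40th percentile.

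**Figure D4:**
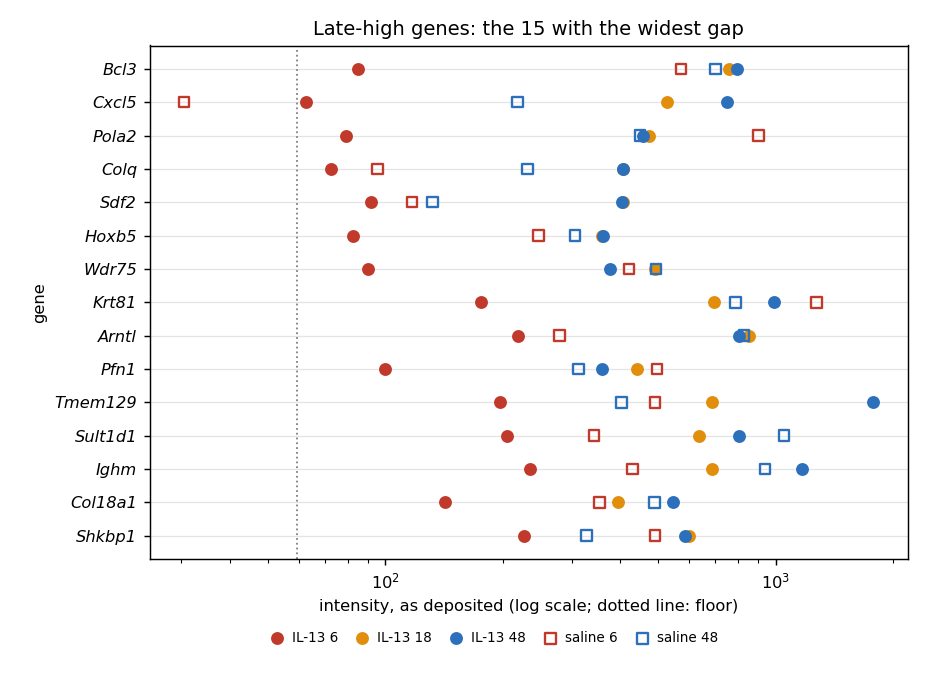
Intensity on a log scale for the 15 late-high genes with the widest gap, with symbols as in the plot of early-high genes. The red circle of IL-13 6 lies left of both later IL-13 arrays in every row, at 62.7 to 235, and is alone on the left for Bcl3, Hoxb5, Wdr75 and Pfn1, while for Cxcl5, Colq, Sdf2 and Arntl the red square of saline 6 lies near or beyond it.

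Both steps (6 to 18 and 18 to 48) were at least 1.5-fold downward at 18 probe sets (0.145%) and upward at 11 (0.0886%). Cmip, a signalling adaptor, read 623, 235 and 59.5 at one probe set, while its brightest read 3704, 2916 and 2759 and was steady. Fos, an immediate early AP-1 subunit, went the other way at 724, 1242 and 3371 on IL-13 6, 18 and 48, with saline at 1287 and 889. Dusp1, an immediate early phosphatase that is also on the glucocorticoid list, read 3159, 5424 and 7049.8, with saline at 6148 and 3114. IL-13 48 was the highest of the 5 arrays for both, although the immediate early list had a median of -0.16, with 1 of its 38 genes early-high and 0 late-high.

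Some of the widest differences belonged to IL-13 18 alone, with no early or late order. Probe sets at least 2-fold higher there than on both other IL-13 arrays numbered 54 (0.435%), and 12 (0.0966%) were lower. Alveolar genes led the high set: Sftpb, a surfactant protein, read 86.3, 2114 and 67.6, with saline at 232 and 92.4, and Slc34a2, the phosphate carrier of type 2 cells, read 224, 2729.6 and 113, with saline at 252 and 148. Ager, of type 1 cells, read 2081, 4928 and 2019, with saline at 1872 and 2128. Of the 13 type 2 genes on the array 5 had this pattern, and 3 of 10 type 1 genes, against 0.509% of all genes.

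Atrial muscle genes did likewise. Myl7, the atrial myosin light chain, read 225, 3323 and 192 on IL-13 6, 18 and 48, with saline at 7548 and 129.9, and Nppa, atrial natriuretic peptide, read 514, 2032 and 537, with saline at 2650.3 and 416. IL-13 18 and saline 6 were high for these genes and the other 3 arrays low. Of 27 heart genes 6 were high on IL-13 18 alone, against 0.509% of all genes, while 2 were late-high and 9 steady. Of 25 B and plasma cell genes 2 were low on IL-13 18 alone, against 0.133% of all genes. These were Cd79a and Ms4a1 (CD20). Cd79a, a chain of the B cell receptor, read 528, 127 and 783, with saline at 2126 and 277, and Ms4a1 read 818, 330.3 and 776, with saline at 2352 and 306. Igha, an immunoglobulin heavy chain on the same list, instead read 1916, 3281 and 4709, with saline at 2038 and 4559. Glycam1, a ligand of high endothelial venules, read 747, 35.8 and 677, so the other IL-13 arrays were at least 11.4-fold above IL-13 18, which was below the floor. Ccl5, a T cell chemokine, read 731, 36.6 and 538, a gap of at least 9.10-fold. Of 15 immature thymocyte genes 3 were instead high on IL-13 18 alone and 5 steady, against 0.509% and 47% of all genes. Of 32 T and natural killer cell genes 2 were high there alone, against the same 0.509%. Cd8a, on both lists, read 225, 1153 and 311, with saline at 1210.3 and 1698. Whether such genes mark the amount of lung parenchyma, atrium or lymphoid tissue on an array was not tested.

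**Figure D5:**
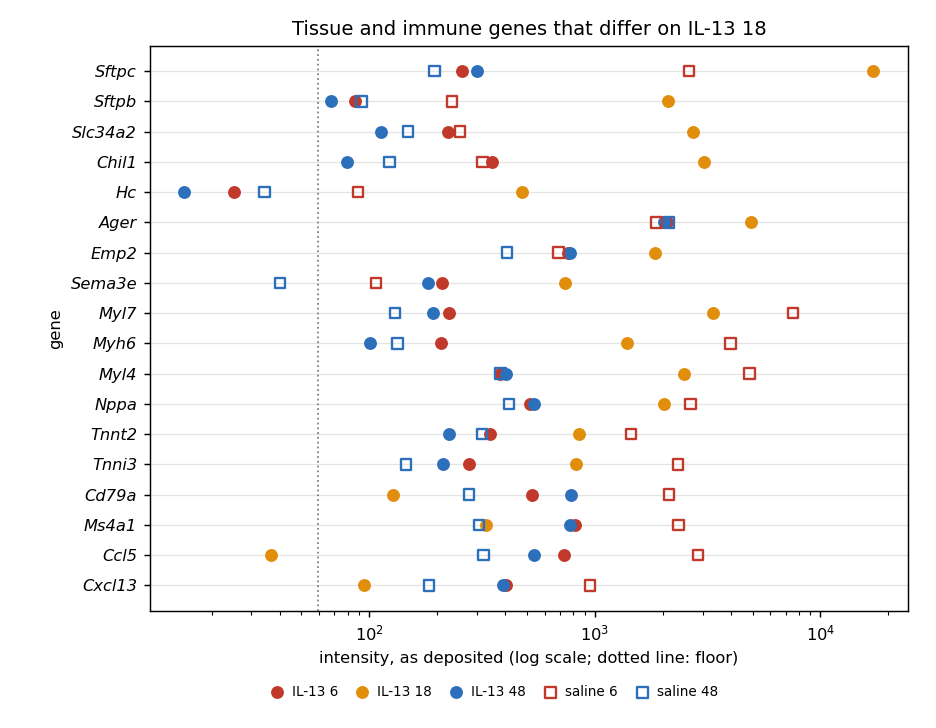
Intensity on a log scale for alveolar (Sftpc to Sema3e), heart (Myl7 to Tnni3), B cell (Cd79a, Ms4a1) and chemokine genes, with symbols as in the plot of early-high genes. The orange circle of IL-13 18 lies far right of the other IL-13 circles for alveolar and heart genes, and left of them for the last 4 genes; for heart genes the red square of saline 6 lies further right still.

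IL-13 48 alone was at least 2-fold higher at 13 probe sets (0.105%) and lower at 24 (0.193%). Of 32 T and natural killer cell genes 3 were among the lower, against 0.218% of all genes. Cd3e, a CD3 chain of T cells, read 415, 843 and 108, with saline at 1911 and 1804, and Cd8b1 read 635, 989.8 and 183, with saline at 1948 and 2888. All 3 IL-13 arrays read below the saline pair for both, an order whose share of all probe sets was not counted. Other members differed: Cd7 was highest on IL-13 48, at 142, 266 and 330, and Cd5 was late-high, at 203, 547 and 427. Ankrd1, a stress protein of muscle, read 1754, 1696 and 228, with saline at 3274 and 309.8.

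Sustained transcripts are those steady over the 3 IL-13 arrays, and a steady level alone does not separate a held response from constant expression. With saline beside them, 2 of the 4804 steady probe sets (0.0416%) were at least 2-fold above both saline arrays on all IL-13 arrays, and 0 were below. One was Clca1, the secreted goblet cell protein gob-5, at 21502, 29076 and 22007 on IL-13 6, 18 and 48, with saline at 3118 and 285. The other was Sct, the hormone secretin, at 1514, 1498 and 1351, with saline at 406 and 619.9, from a probe set ending in _f_at. Both rest on 1 probe set. Clca1 lay within 1.35-fold over the IL-13 arrays at its bright probe set, which ends in _r_at, while its other one was dim, at 112, 157 and 24.6, with both saline arrays below the floor. A brighter probe set of Sct read 2794, 2644 and 2809.7, with saline higher at 4501 and 3068.

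The goblet cell and mucus list held 18 genes on the array, of which 7 were steady, 0 early-high and 0 late-high, with a median log2 difference of 0.01. Over all genes 47% were steady, 0.57% early-high and 0.315% late-high, so these counts are near the background and are not a result about the list. Agr2, a protein disulfide isomerase needed for mucin folding, read 5156, 9369.9 and 4339, with saline at 1944 and 2646. Fcgbp, a mucus protein, read 2961, 4858 and 3193, with saline at 895 and 1135, and Itln1, a secreted lectin, read 9209, 14791 and 10928, with saline at 4295 and 6078. For all 3, IL-13 18 was highest and every IL-13 array was above both saline arrays. The share of all probe sets with that separation was not counted, and some members of the list, such as Creb3l1 and Tff2, lacked it. Tff2, a trefoil peptide, was steady at 17619, 12524 and 12824, with saline at 10429 and 12877. Muc5ac read 5.99, 29.8 and 14.4, below the floor on every array, so nothing can be said of its order here.

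Several receptor and signalling genes of the pathway were also steady. Stat6 read 1408, 1714 and 1801, with saline 6 and 48 at 1385 and 2151. Il4ra read 599, 573 and 545, with saline at 683 and 838. Socs1, a feedback inhibitor, read 422, 467 and 411, with saline at 594 and 809. For Il4ra and Socs1 every IL-13 array was thus below both saline arrays. Postn, periostin of the extracellular matrix, read 6599.7, 7259 and 6070.3, with saline at 3715 and 3623, so every IL-13 array was above the saline pair, under the 2-fold rule. Chil3, a chitinase-like protein of macrophages, was instead high on IL-13 18, at 2566, 7595 and 3182, with saline at 388 and 92.0. Each of its IL-13 values was above both saline values. Chia1, a chitinase on the same IL-13 response list, was also high on IL-13 18, at 305, 2619 and 276. It lacked that separation, with saline 6 at 20431 and saline 48 at 186. For Postn and Chil3 too, the share of all probe sets with this separation was not counted.

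For broad housekeeping lists, counts of 0 early-high or late-high genes are near the background of 0.57% and 0.315%. Of 64 cell cycle and replication genes, 0 were early-high or late-high, with a median of -0.08, and its largest difference was that of Aurka, a mitotic kinase, at 113, 229 and 271. Of 57 extracellular matrix genes 35 were steady and 0 were early-high or late-high, with a median of -0.18. Of 38 genes of folding and secretion in the endoplasmic reticulum 27 were steady, and of 55 oxidative phosphorylation genes 45 were steady, against 47% of all genes. The steady rule asks for values above the pooled median, which favours bright lists. Median levels of the oxidative phosphorylation list were 6135, 5089 and 5552 on IL-13 6, 18 and 48, against 516, 526 and 522 over all genes. The part of brightness in these shares was not tested. Eosinophil markers were at or near the floor: of 6 on the array only Alox15 exceeded the 40th percentile, and Epx, the eosinophil peroxidase, read at most 25.3.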

How the data were processed

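The authors deposited one table of linear intensities for 12488 probe sets on 5 arrays, scaled to a common 2% trimmed mean as the deposited values themselves show. Software and background correction: not given in the sources used here, nor were detection calls used. Intensities carry no read depth; the number of arrays and, for dim probe sets, signal near background limit precision.

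After 66 manufacturer controls were left out, intensities below 59.2 (the 20th percentile pooled over the 3 IL-13 arrays) were raised to that floor before taking log2. A fold whose lower array lay below 59.2 is written "at least". Patterns used all 12422 probe sets. lmFit and eBayes of limma 3.58.1 (R 4.3.3) compared IL-13 6 with IL-13 18 and 48 over the 7457 probe sets brighter than the 40th percentile (216) on 2 or more of these arrays, two-sided, with Benjamini-Hochberg adjustment over all of them and a threshold of 0.05. Standard errors (SE) are moderated ones from eBayes. Whether each array is a separate animal is not stated. The p-values and SEs rest on the difference between IL-13 18 and 48 and on the prior, so they do not measure spread between replicates. That difference may be of title number or technical.

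Gene symbols came from the platform annotation (exactly 1 symbol for 10833 probe sets, 396 with several, 1193 with none; 10817 updated through the RefSeq gene table). In lists, the probe set of the highest mean stands for a gene (8251 genes). Genes named were drawn from sets given by rule, and not every member of each set is printed. The sets were the 15 with the widest gap among early-high and among late-high. To these came the 8 widest in each pattern of a single array and each stepwise pattern, and the 12 brightest steady ones. Up to 4 genes of each list, and members of the IL-13 response and goblet lists, completed the sets. Other names were chosen after their values were seen. Members and lists were chosen with earlier results of these data known. Alternatives changed the floor, fold, brightness, normalization, filter, prior and the arrays used.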

Additional observations from a re-analysis of the deposited data

Results flagged for a closer look

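Of the 30 early-high and late-high genes named by the widest gap, 2 had saline arrays at least 2-fold apart in the opposite order, a difference that was not tested and has single arrays behind it. Over all members, saline 6 lay at least 2-fold below saline 48 at 6 of 62 early-high probe sets and at least 2-fold above it at 5 of 38 late-high ones. The probe set of Gtf2f2, a general transcription factor subunit, was early-high within IL-13 at 1061, 171 and 211 on IL-13 6, 18 and 48, while saline 6 read 228 and saline 48 read 1263, a log2 difference of -2.47. The late-high probe set of Pola2 read 79.2, 472 and 458 within IL-13, while saline 6 read 904 and saline 48 read 449, a log2 difference of 1.01. Both probe sets end in _r_at, which marks probes chosen under relaxed rules.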

How the results depend on the processing

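All 180 differences of the 30 named early-high and late-high genes under 6 alternatives kept their sign. These genes were chosen for the widest gap, so a kept sign was largely set in advance and is no support. The 40th percentile as floor gave 24 late-high, 11 stepwise lower and 6 stepwise higher probe sets. A 1.5-fold rule gave 184 early-high, 179 late-high, 155 18-high, 60 18-low, 79 48-high and 80 48-low; a 3-fold rule gave 16, 13, 27, 5, 2 and 9. Brightness above the 40th percentile gave 59 late-high, 34 18-low, 31 48-high, 43 48-low and 21 stepwise higher; above the 60th it gave 18 late-high, 5 18-low and 6 stepwise higher. Leaving out a later array gave 110 to 131 early-high and 94 to 135 late-high. Fewer arrays or a looser rule set these counts by construction. Quantile normalization kept 60 of 62 early-high and 33 of 38 late-high probe sets. limma gave 0 calls under all 7 alternatives (lowest adjusted p from 0.0569 to 0.350). List medians without a later array lay at 0.08 to 0.24 (IL-13 response), 0.09 to 0.26 (glucocorticoid), 0.25 to 0.28 (clock) and 0.26 to 0.42 (small proline-rich). The higher floor gave 0.05 for IL-13 response and 0.14 for small proline-rich. The clock median was 0.27 under quantile normalization, 0.27 with a common median of bright probe sets, 0.16 over all probe sets of a gene and 0.30 over brighter members; brighter small proline-rich members gave 0.44. The cause was not tested. limma without a later array has no residual degrees of freedom, and without IL-13 6 nothing is compared. No paired analysis was possible because each title number holds 1 IL-13 array. Signal near background limits the dimmer members.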
